A study of Trichechus manatus latirostris with 11 samples.

Results

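The genes described here encode the mitochondrial ribosome and the complexes of oxidative phosphorylation, as measured in blood cells of Florida manatees. They were selected by symbol alone, from the RefSeq annotation of the TriManLat1.0 assembly, with no use of their values. The symbols taken were those of the mitochondrial ribosomal proteins (MRPL and MRPS), the subunits and assembly factors of complex I (NDUF), complex II (SDHA to SDHD), complex III (UQCR), complex IV (COX4 to COX8) and the ATP synthase, complex V (ATP5). This gave 110 of the 15298 transcript records of the table, carrying 108 different symbols, of which ATP5PF had 3 records. A symbol was known for 10080 records (65.9%). The 110 comprised 36 proteins of the large and 20 of the small mitoribosomal subunit, 29 structural subunits of complex I, 7 complex I assembly factors, 4 subunits of complex II and 14 records of complex V. Complexes III and IV had 0 matching records each and were not analysed here.

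Mitochondrial ribosomes translate the few proteins that the mitochondrial genome encodes, which are subunits of the respiratory chain and the ATP synthase. All of the proteins of the mitoribosome, and most subunits of the complexes, are encoded in the nucleus and imported. Complex I passes electrons from NADH, and complex II from succinate, into the chain whose proton gradient drives ATP synthesis by complex V, while lymphocytes and monocytes are generally richer in mitochondria than mature neutrophils.

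RNA came from buffy coats, the white cell layer of centrifuged blood, of adult animals, and was depleted of ribosomal and globin RNA before sequencing. The red tide group held 4 manatees rescued during a bloom of the toxic alga and treated at the Lowry Park Zoo, some sampled on arrival and others after a week of care. The control group held 7 manatees, of which 4 came from Crystal River, 2 from the Indian River Lagoon in Brevard County, and 1 was recovering from pneumonia at the same zoo. All red tide animals were thus sampled at the zoo and 6 of the 7 controls in the wild, so place of sampling and group cannot be told apart, and storage of the red tide buffy coats is described both as freezing and as RNAlater.

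The deposited table gives, for each record, the mean of counts divided by a size factor for each library (the normalized count) in a first and in a second group, without naming them. The overall mean weighted the first by 4 and the second by 7 throughout, to a relative deviation of at most 3.34e-09. So 4 libraries, the number of red tide animals, stand behind the first mean and 7, the number of controls, behind the second. This assignment is uncertain: the study's text describes its fold changes in the direction opposite to the one that these numbers imply. Each mean is therefore named below by its number of libraries, and no direction is stated for either group of animals. All differences are log2 ratios with the 7-library mean as the divisor, and levels are not compared between genes, because the counts are not divided by transcript length. Because a mean of normalized counts is a sum of whole reads with a fixed worth in each library, the 4 libraries' own reads could be worked out where a single combination gave the mean. This held for all 62 of these genes with a 4-library mean under 100. The other 48 are known by their 2 group means alone, with no error. The libraries are named by size factor, which was 1.56, 1.03, 0.620 and 0.372 in the 4-library group and 0.702 to 1.73 in the 7-library group. Deeper and shallower below mean only a larger and a smaller size factor. The total reads per sample given in the study's text span a narrower range, so size factor is not sequencing depth alone. Which animal gave which library is not known.

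The blood cell markers differed between the group means. Records of 5 of 8 general leukocyte genes were measured, among them ITGB2 at 3572 and 3481 and LAPTM5 at 7673 and 4508 normalized counts (4-library and 7-library means), and CORO1A and CD37 lower in the 4-library mean, at 28.4 and 45.1 and at 129 and 177, so markers of the labelled tissue were present. Summed over 9 of 9 neutrophil markers, the level was 2875 in the 4-library mean and 13074 in the 7-library mean, and 8 of the 9 were at least 2-fold higher in the 7-library mean. Over 5 of 7 platelet markers the sums were 15250 and 4419, and 4 of the 5 were at least 2-fold higher in the 4-library mean. In bulk samples fewer cells of a type and less RNA per cell cannot be told apart, and the part of cell composition in the values below was not tested.

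As a whole, the mitochondrial genes had nearly equal group means. Their median log2 ratio was 0.074, with quartiles of -0.31 and 0.42, and 58 of 110 were higher in the 4-library mean and 52 in the 7-library mean. Over all 15298 records the median was 0.14, and over the 10225 records with a mean of at least 10 it was -0.012, so the sign of the small median depends on which of these it is set against: centred on all records it was -0.065. Summed over the 110, normalized counts came to 21647 in the 4-library mean and 20625 in the 7-library mean.

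The group means of these genes also lay close together gene by gene. In 77 of 110 (70.0%) the means were within 1.5-fold of each other, against 46.0% of all records and 55.6% of those with a mean of at least 10. The median size of the log2 ratio, without regard to sign, was 0.38 here, 0.65 over all records and 0.51 over those with a mean of at least 10. Like values were found for the proteasome (0.36) and for cytosolic ribosomal proteins (0.38), so closeness of the means was shared with those genes. In all, 11 genes were at least 2-fold higher in the 4-library mean (10.0%), where 23.9% of all records were, and 4 were at least 2-fold higher in the 7-library mean (3.64%), where 10.4% of all records were. Among the 99 with a mean of at least 10 the counts were 8 (8.08%) and 3 (3.03%), against 12.3% and 9.59% of all records at that level, because 3 of the 11 and 1 of the 4 had a mean under 10. With ratios centred on the median of all records the counts of 11 and 4 became 6 and 6, against 21.4% and 13.1% of all records, so the lean to the 4-library mean was absent on that scale. These shares are descriptions, since each group has 1 value per gene and no test across genes was possible on group means.

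**Figure D1:**
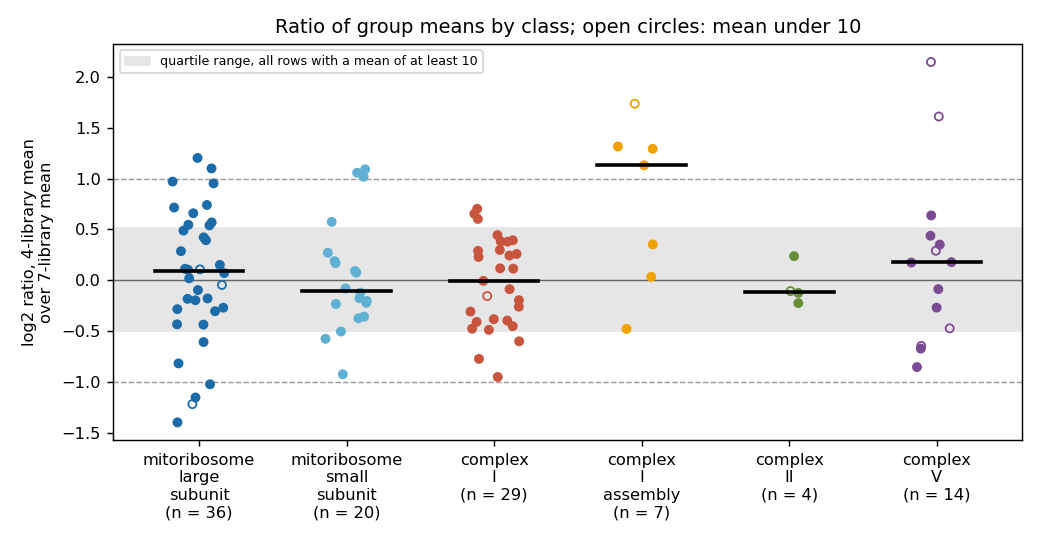
Log2 of the 4-library mean divided by the 7-library mean (vertical axis) for each of the 110 records, by class. Black bars are class medians, the grey band is the quartile range of all records with a mean of at least 10, dashed lines mark 2-fold, and open circles have a mean under 10. The complex I subunits lie between -0.95 and 0.70, while 4 of 7 complex I assembly factors lie above 1.

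Cytosolic ribosomal proteins and the proteasome, the machines most like these in kind, gave different pictures. The median log2 ratio of 69 records of cytosolic ribosomal proteins was 0.38, and 65 of them were higher in the 4-library mean. The mitoribosomal proteins, with 29 of 56 higher in the 4-library mean and a median of 0.046, lacked that lean to one group. The 43 proteasome records, with a median of -0.032 and 20 higher in the 4-library mean, were split much as the mitochondrial genes were. These medians are descriptions of the same libraries and no test of the lists was made.

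The structural subunits of complex I were evenly divided between the group means. Of 29 subunits 14 were higher in the 4-library mean and 15 in the 7-library mean, the median log2 ratio was -0.0041, and 0 of 29 reached 2-fold in either direction. Among all records 34.3% reached 2-fold, and 21.9% of those with a mean of at least 10. The highest ratio was that of NDUFA5, an accessory subunit of the matrix arm, with means of 203 and 125 (0.70). The lowest was that of NDUFB1, a small accessory subunit of the membrane arm, with means of 113 and 218 (-0.95).

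Among the core subunits that carry electrons through complex I, both signs occurred. NDUFV1, which binds NADH and flavin, had means of 19.1 and 24.9, and NDUFV2, its iron-sulfur partner, 883 and 1206 (-0.45). NDUFS1, the largest subunit, had means of 5.92 and 6.58. NDUFS3, a core subunit of the matrix arm, went the other way, with means of 186 and 123 (0.60). NDUFS8, which holds iron-sulfur clusters, had the same mean in both groups to within rounding, 41.8 and 42.0, so the core subunits named here had no common direction. NDUFA4, which bears a complex I name although the protein is now placed in complex IV, had means of 233 and 190.5 (0.29).

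The equal means of NDUFS8 covered libraries that differed widely. Its normalized counts in the 4 libraries, from the largest to the smallest size factor, were 82.1, 38.0, 17.7 and 29.6, an SD of 28.1 (n = 4) around 41.8. The deepest library alone lay above the 7-library mean. For NDUFV1 the values were 41.1, 10.7, 19.3 and 5.38, where again the deepest library was highest and the 7-library mean of 24.9 lay inside the range.

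A 7-library mean outside the range of the 4 libraries was seen for 3 of the 15 complex I subunits with recovered reads, each with the 4 libraries below it. Among all records with recovered reads the 4 libraries lay below it in 17.8%. NDUFA12, an accessory subunit of the matrix arm, had 92.4, 84.7, 72.5 and 78.0 normalized counts in the 4 libraries, against a 7-library mean of 115. These 4 values lay close together (SD 8.57), and the difference of the means was 3.82 times that SD. NDUFB3, in the membrane arm, had 85.3, 98.3, 53.2 and 69.9 against 102, with the second library close to the 7-library mean. NDUFC2, also in the membrane arm, had 74.4, 73.0, 64.5 and 32.3 against 75.5, so 3 of its libraries lay near that mean and only the shallowest far below.

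The complex I assembly factors stood to one side of the subunits they put together. Their 4-library mean was the higher in 6 of 7, and the median log2 ratio was 1.13. At least 2-fold higher in the 4-library mean were 4 (57.1%), where 23.9% of all records were. The 4 include NDUFAF8, which has a mean under 10. Among the assembly factors with a mean of at least 10 the median was 0.74. NDUFAF6 had means of 434 and 175 (1.31), and NDUFAF5, an enzyme that hydroxylates a core subunit, 316 and 129 (1.29). NDUFAF4, which acts on an early membrane-bound intermediate, had means of 119 and 54.4 (1.13). These 3 have no recovered reads, so their spread between libraries is unknown.

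The other 4 assembly factors, whose reads were recovered, did not separate from the 7-library mean. NDUFAF3, the partner of NDUFAF4, had 19.2, 5.84, 12.9 and 0 normalized counts against a 7-library mean of 13.2 (-0.48). NDUFAF1, part of the complex that builds the membrane arm, had 26.3, 38.9, 51.6 and 75.3 against 37.6. NDUFAF7, a methyltransferase, had 46.2, 84.7, 37.1 and 80.7 against 60.7. Each of these straddled the 7-library mean. NDUFAF8 rested on 14 reads in the 4 libraries and 6 in the 7, and is taken up with the genes known in all libraries.

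Assembly factors outside the NDUFAF family did not share that direction. Of 44 listed genes for assembly of the complexes 12 were measured, and 10 of these were higher in the 7-library mean (median -0.18). ACAD9, ECSIT and TMEM126B, which work together with NDUFAF1, had log2 ratios of -0.27, -0.53 and -0.078. TIMMDC1 had -0.46 and NUBPL, which delivers iron-sulfur clusters to complex I, -0.039. FOXRED1, another complex I factor, was higher in the 4-library mean (31.3 and 18.7). At least 2-fold apart were 2 of the 12 (16.7%), where 34.3% of all records were. Both were higher in the 7-library mean: TMEM70, a factor for complex V, with means of 30.8 and 86.6, and SDHAF1, for complex II, with means of 2.05 and 4.39.

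Complex II was close to even throughout. SDHA, the flavoprotein that oxidises succinate, had means of 582 and 493.2, and SDHB, the iron-sulfur subunit, 858 and 934. SDHC and SDHD anchor these in the inner membrane. For SDHC the 4 libraries had 17.3, 32.1, 8.06 and 29.6 against a 7-library mean of 25.4, and for SDHD 8.98, 2.92, 19.3 and 0 against 8.40. The log2 ratios of the 4 genes ran from -0.22 to 0.24, and the spread between libraries (SD 11.2 for SDHC and 8.55 for SDHD, n = 4) exceeded the difference of the means.

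The median log2 ratio of complex V was 0.18, and 8 of its 14 records were higher in the 4-library mean. ATP5F1B, the catalytic subunit, had means of 2296 and 1799 (0.35), while ATP5F1C, the rotating central shaft, had 123 and 196 (-0.67). ATP5PB, ATP5PD and ATP5PO of the peripheral stalk had ratios of 0.18, -0.086 and 0.44. ATP5IF1, the inhibitor that keeps the enzyme from running backwards, was the lowest of the class, with means of 337 and 608 (-0.85). Catalytic, rotor, stalk and inhibitor genes thus had no common direction.

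Dependence on a single library differed between complex V genes. ATP5MJ, a small membrane subunit, had 34.0, 84.7, 29.0 and 16.1 normalized counts against a 7-library mean of 26.3. Without the library of size factor 1.03 its log2 ratio of 0.64 became 0.0034. ATP5F1D, the delta subunit of the central stalk, had 19.9, 17.5, 27.4 and 26.9, each below the 7-library mean of 27.6, the last pair only just. Its log2 ratio of -0.27 stayed between -0.16 and -0.36 whichever library was left out.

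The mitoribosome, with 56 of the 110 records, held 9 of the 15 that were at least 2-fold apart. Its large subunit had a median log2 ratio of 0.088 and its small subunit -0.099, with 20 of 36 and 9 of 20 higher in the 4-library mean. At least 2-fold higher in the 4-library mean were 2 of the large and 3 of the small subunit, and at least 2-fold higher in the 7-library mean were 4 of the large and 0 of the small. Over the mitoribosome these were 8.93% and 7.14%, where 23.9% and 10.4% of all records were, and the difference between its subunits was not tested. The subunits are taken by symbol here, and the 3 include MRPS18A, whose protein has been placed in the large subunit. Within the mitoribosome the ends of the range were MRPL44, with means of 404 and 176 (1.20), and MRPL13, with 121 and 318 (-1.39). MRPL17 also had a 4-library mean more than 2-fold higher, 931 against 434, but like the former pair it has no value of a single library.

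**Figure D2:**
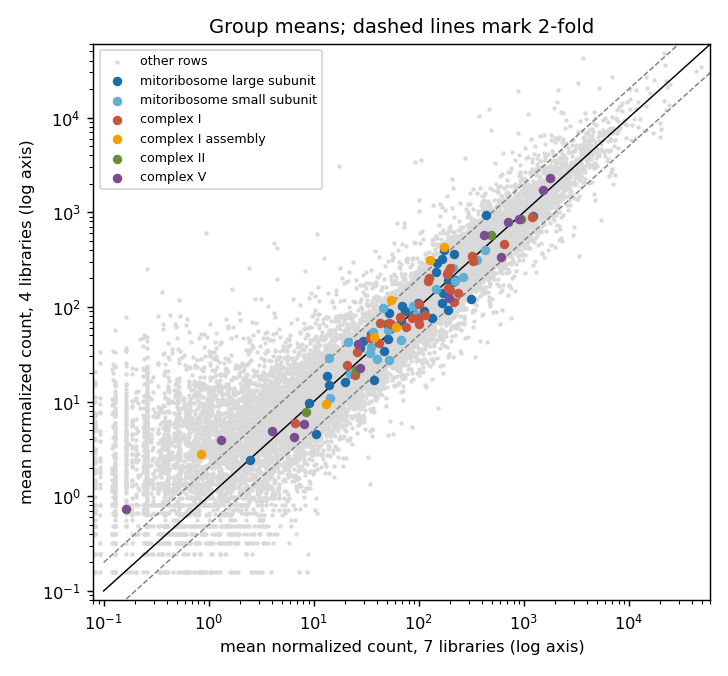
Mean normalized count over 7 libraries (horizontal, log axis) against that over 4 libraries (vertical, log axis), with the mitochondrial genes coloured by class and all other records in grey. The solid line marks equal means and the dashed lines 2-fold. Of the 110 records, 95 lie between the dashed lines.

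Reads of single libraries bear on which of these differences were larger than the spread within the 4 libraries. Of the 62 genes with recovered reads, each of the 4 libraries lay above the 7-library mean in 5, where this held for 10.6% of all records with recovered reads, and below it in 12, where it held for 17.8%. At a mean of at least 10 these were 5 and 11 of 51 genes, beside 669 and 1373 of 5070 records. Recovery needed a 4-library mean under 100, so genes such as MRPL44, MRPL17 and NDUFAF6 are not counted. In the other 45 of the 62 the 7-library mean lay among the 4 libraries. The difference of the group means exceeded the SD of the 4 libraries in 13 of 62 and was smaller than it in 49. This was counted for these genes only, so whether 13 of 62 is many or few for this table is not known. The spread of the 7 libraries is not known at these levels, so being outside the range of the 4 libraries is not a test of the groups.

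The 5 genes with each library above the 7-library mean were all mitoribosomal, as were 34 of the 62 genes with recovered reads. These 5 of 34 stand beside 1073 of 10143 (10.6%) of all records with recovered reads, and the difference was not tested. MRPS26 had 112, 104, 119 and 51.1 normalized counts against a 7-library mean of 45.3, so the shallowest library came close to that mean. MRPS33 had 18.6, 42.8, 27.4 and 26.9 against 13.9. In MRPS18A the libraries were tighter, with 41.7, 33.1, 45.1 and 51.1 against 21.1, a difference of 2.88 times the SD of 7.53.

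In the large subunit MRPL46 had 93.0, 85.7, 109.6 and 56.5 against 52.5, and MRPL38 had 59.7, 74.0, 35.5 and 37.7 against 35.4, where the library of size factor 0.620 practically equalled the 7-library mean. MRPS26, MRPS33 and MRPS18A were also at least 2-fold higher in the 4-library mean. MRPS18A, whose protein has been placed in the large subunit despite its name, and MRPS18B are paralogs, and they lay on opposite sides of the 7-library mean.

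For MRPS18B the 4 libraries had 44.9, 30.2, 16.1 and 18.8 normalized counts, each below a 7-library mean of 52.1 (-0.92). Their paralog MRPS18C had means of 396 and 430 (-0.12). Reads of each record were counted only where they mapped uniquely, but near-identical stretches of paralogs can still lose or shift reads.

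Other small and large subunit proteins also lay below. MRPL48 had 102, 122, 75.8 and 75.3 normalized counts against a 7-library mean of 190.0, a difference of 4.29 times the SD of 22.4. MRPL14 had 15.4, 20.4, 0 and 32.3 against 37.8, with 0 reads in the library of size factor 0.620. MRPL18, which also escorts 5S ribosomal RNA in mammalian cells, had 120.0, 88.6, 66.1 and 29.6 against 134. In both of the latter the shallower libraries spread widely, and the nearest library was not far below the 7-library mean.

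Smaller gaps were seen for the rest. MRPS27 had 24.4, 39.9, 35.5 and 13.5 against 40.1, and MRPL50 had 109.7, 108, 96.7 and 51.1 against 111. In each of these the highest library lay almost at the 7-library mean. MRPL15 and MRPL49 completed the 12 and are named here because the count includes them, not by the rule for named genes. MRPL15 was nearly even, with 78.0 to 89.8 against 90.2, and MRPL49 had 14 reads in the 4 libraries, with 0.641 to 8.76 normalized counts against 10.5.

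**Figure D3:**
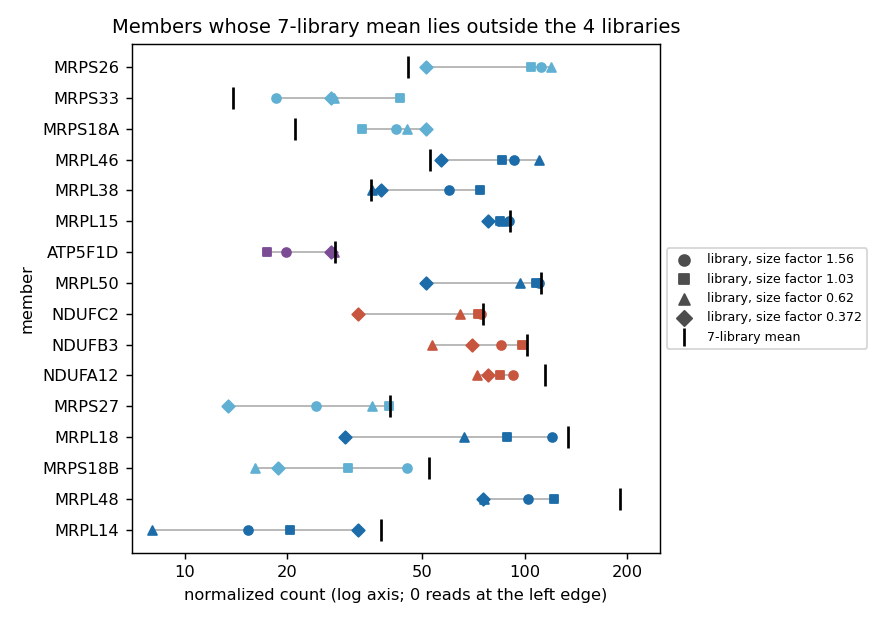
Normalized counts (log axis) in each of the 4 libraries, by marker shape, and the 7-library mean (black tick) for the genes with a mean of at least 10 whose 7-library mean lies outside the 4 libraries. The 5 genes at the top have each library above the 7-library mean and the 11 below them have each library below it. Colours are those of the classes in the plot of ratios by class, and the library of MRPL14 with 0 reads is drawn at the left edge.

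The 4 libraries did not behave as a single group for these genes. Over the 62 genes with recovered reads, the median log2 ratio of a library to the 7-library mean was 0.35 in the library of size factor 1.56 and 0.25 in that of 1.03, but -0.60 in that of 0.620 and -0.46 in that of 0.372. Over all 10143 records with recovered reads the deeper libraries had the lower medians, with -0.41, -0.38, 0.042 and -0.0094. Over the 5070 of them with a mean of at least 10 the medians lay closer together, at -0.26, -0.28, -0.20 and -0.12. Medians of the 51 mitochondrial genes at that level were 0.37, 0.27, -0.55 and -0.40. For these 62 genes the near equality of the group means was therefore an average of deeper libraries that were mostly higher and shallower libraries that were mostly lower.

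Ranks within each gene showed the same. The highest of the 4 libraries was one of the 2 with the larger size factors in 50 of 62 genes (80.6%), against 34.7% of all records with recovered reads. The lowest was one of the 2 with the smaller size factors in 52 of 62 (83.9%), against 39.2%. Both deeper libraries lay above both shallower ones in 32 of 62 (51.6%), against 14.1%, and the reverse occurred in 4 (6.45%), against 29.0%. Counts of few reads scatter more in shallow libraries, so these shares were also taken at a mean of at least 10, where 42 of 51 (82.4%) had the highest value in a deeper library, against 38.9%, and 29 of 51 (56.9%) had both deeper above both shallower, against 18.6%.

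The pattern was present in each of the larger classes. In complex I the lowest library was one of the shallower pair in 15 of 15 genes, and both deeper libraries lay above both shallower ones in 11 of 15. NDUFS6, a subunit of the matrix arm that is not among the genes named by rule, had 93.7, 99.3, 46.7 and 29.6 normalized counts, and NDUFB11, in the membrane arm and likewise picked after its values were seen, 40.4, 38.9, 9.67 and 8.07. The same order was seen in some of the other lists. Both deeper libraries lay above both shallower ones in 3 of 5 cytosolic ribosomal proteins with recovered reads and in 6 of 12 mitochondrial translation genes. The proteasome, with 3 of 16 genes (18.75%), was close to all records with recovered reads. Among those the share was 14.1%, and 18.6% at a mean of at least 10. The library medians of these cytosolic ribosomal proteins were 0.80, 1.11, -0.46 and -0.056. In the large mitoribosomal subunit the full separation was seen in 13 of 21 and in the small subunit in 5 of 13. The exceptions included MRPS18A and NDUFAF1, whose highest values were in the shallowest library.

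**Figure D4:**
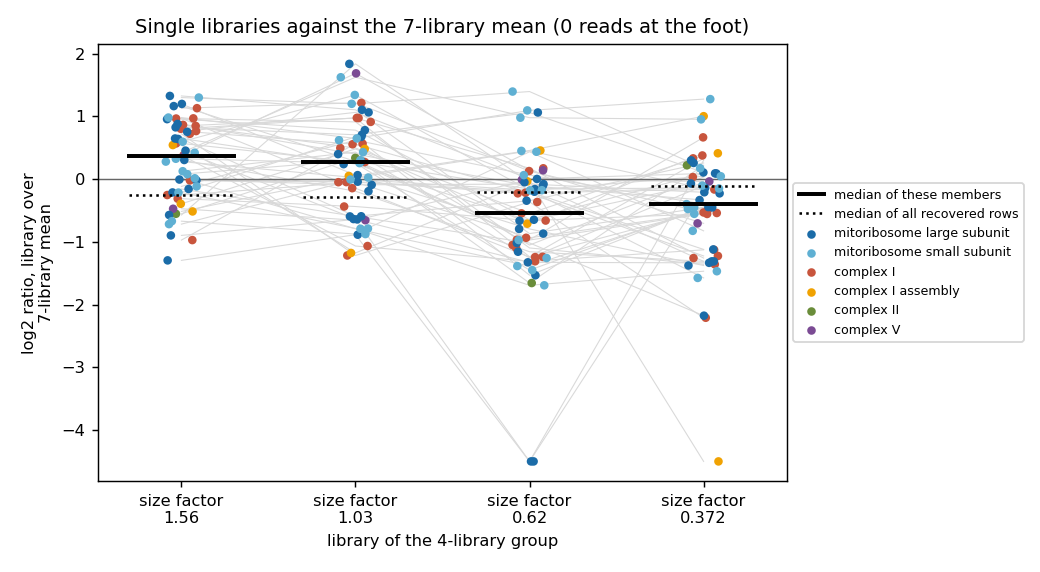
Log2 ratio of each of the 4 libraries to the 7-library mean (vertical axis) for the 51 mitochondrial genes with recovered reads and a mean of at least 10, coloured by class, with a grey line joining the values of each gene. Libraries are ordered by size factor, solid bars are medians of these genes (0.37, 0.27, -0.55 and -0.40), dotted bars are medians of all such records (-0.26, -0.28, -0.20 and -0.12), and values with 0 reads are drawn at the foot.

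Size factor went with this pattern in these 4 libraries, and its part in the result was not tested. Blood cell markers differed between the 4 libraries as well. Summed over the 4 neutrophil markers with recovered reads (CXCR1, CXCR2, MMP9 and PADI4), the normalized count was 79.5, 189.8, 422 and 148 in the 4 libraries, against 1872 in the 7-library mean. Summed over the platelet markers GP1BA and GP9 it was 72.5, 90.5, 330.4 and 59.2, against 59.7. The library of size factor 0.620 thus had the highest sum of both kinds of marker and the lowest median of the mitochondrial genes, while the library of 0.372 had the lowest platelet sum. Marker by marker, the library of 0.620 was highest in 3 of the 4 neutrophil genes and lowest in 1. For the monocyte markers CD68 and a single record of VCAN the sums were 138, 169, 69.3 and 153, against 102. The library of size factor 0.620 was thus lowest in these as in the mitochondrial genes. Another VCAN record, with means of 205 and 228, has no recovered reads. The T cell gene LCK had 31.4, 11.7, 27.4 and 13.5, against 28.1. The leukocyte gene CORO1A had 22.5, 19.5, 33.8 and 37.7, against 45.1. In neither gene was the library of size factor 0.620 lowest. The B cell markers CD22 and PAX5 summed to 55.2, 36.0, 40.3 and 121, and the erythroid markers KLF1 and SLC4A1 to 7.06, 6.81, 37.1 and 21.5. The part of cell composition in the differences between libraries was not tested.

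Reads of all 11 libraries could be recovered for 6 records, all weakly counted, and these allow an exact test. A two-sided exact permutation test over the 330 ways to choose 4 of 11 libraries has a smallest possible p of 0.00303. Of these 6, 0 had a p under 0.05, where 21.4% of the 4767 records so tested did, and after Benjamini-Hochberg adjustment over the 4767 records 0 records remained (lowest adjusted p 0.106). The same test on log2(normalized count + 1) gave 879 records at an unadjusted p under 0.05 and 0 after adjustment.

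NDUFAF8 had 4.49, 6.81, 0 and 0 normalized counts in the 4 libraries and a median of 0 and a highest value of 4.52 in the 7 libraries, so both groups held libraries without reads. Its exact permutation p was 0.30 (adjusted 0.590). ATP5MC1 and ATP5MC3 encode the same mature protein of the rotating ring. ATP5MC1 had 10.3, 3.89, 0 and 5.38 in the 4 libraries and 0 to 14.5, with a median of 1.16, in the 7 libraries (exact p 0.761). ATP5MC3 had 0, 12.7, 3.22 and 0, against 0 to 7.68 with a median of 0 (exact p 0.406). Its log2 ratio of 1.61 rested on the library of size factor 1.03, without which it was -0.28, so in both genes the groups overlapped over most of their range.

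MRPL53, a protein of the large mitoribosomal subunit, had 5.77, 3.89, 0 and 0 in the 4 libraries and 0 to 7.55, with a median of 1.16, in the 7 libraries (exact p 0.994). The stalk gene ATP5PF was represented by 3 transcript records, of which 2 were recovered in all libraries. Record XM_004371359.1 had 10.9, 0.974, 4.84 and 0 against 0.905 to 12.8 with a median of 5.23 (exact p 0.442). Record XM_004371361.1 had 3 reads in the 4 libraries and 2 in the 7, too few for a fold. The remaining record, XM_004371360.1, had 10.9, 4.87, 4.84 and 2.69 in the 4 libraries against a 7-library mean of 8.07. It and the first-named record had equal reads in 2 of the 4 libraries, and reads from sequence common to the records of a gene cannot be assigned to one of them with certainty.

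**Figure D5:**
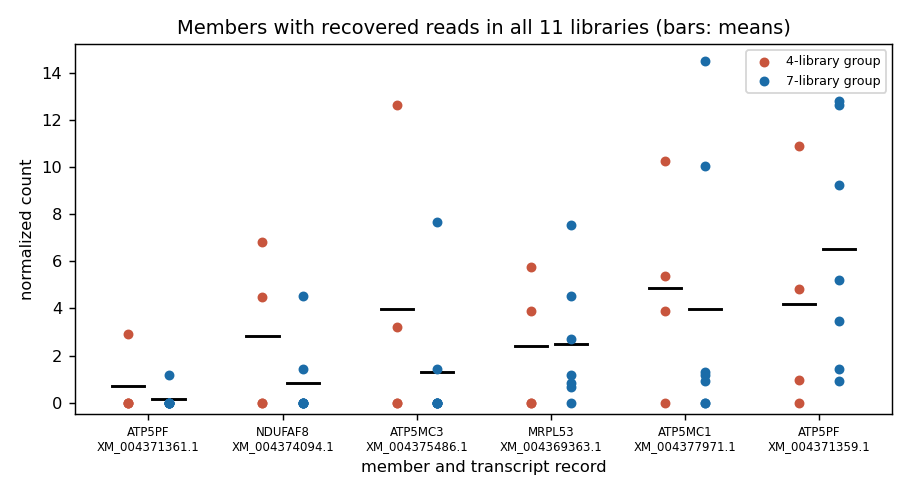
Normalized counts of single libraries for the 6 records with recovered reads in all 11 libraries, with the 4-library group in red, the 7-library group in blue and bars at the group means. The ranges of the groups overlap in each of the 6, and points at 0 can lie over each other.

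Genes that act around these complexes were read from lists set beside them. For mitochondrial translation factors and aminoacyl-tRNA synthetases, 19 of 26 were measured, with a median log2 ratio of -0.10, and 0 were at least 2-fold higher in the 4-library mean and 1 in the 7-library mean. That 1 was RARS2, the arginyl-tRNA synthetase, with means of 236 and 495. Among all records 23.9% and 10.4% were at least 2-fold apart in these directions. TUFM, the elongation factor that brings tRNA to the mitoribosome, had means of 312 and 332. The median size of their log2 ratio was 0.26, against 0.38 for the mitoribosomal proteins, and the difference was not tested.

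Of 16 listed genes of the citrate cycle, which feeds complexes I and II, 14 were measured, with a median of -0.068. The subunits of isocitrate dehydrogenase IDH3A and IDH3B were at least 2-fold higher in the 4-library mean, with means of 195 and 73.7 and of 103 and 36.6. The remaining subunit of that enzyme, IDH3G, had means of 97.2 and 75.6, so the subunits differed in the size of the ratio. The citrate synthase gene CS had means of 1.85 and 5.80.

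The regulators of mitochondrial biogenesis gave 12 records of 10 genes, with a median of 0.23. PPARGC1A, the coactivator best known for inducing mitochondrial genes, had means of 8.28 and 0.517, and ESRRA, one of the nuclear receptors it works with, had 1.21 and 4.60. NRF1, which binds promoters of many of the genes described here, had means of 234 and 209. Of the 12 records 3 were at least 2-fold higher in the 4-library mean and 1 in the 7-library mean, and these include weakly counted genes.

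Gene length in the annotation, which the selection did not use, differed from the rest of the table. The median genomic length of the mitochondrial genes was 8292 bases. Records with a symbol and a mean of at least 10 were divided into 4 equal sets by length, and 59, 24, 10 and 6 of the mitochondrial genes fell into these from the shortest to the longest. The 4-library mean was higher in 35 of 59, 16 of 24, 2 of 10 and 0 of 6 of them. Medians of all records in those sets ran the same way, at 0.18, 0.048, -0.068 and -0.11. The part of length in the differences was not tested.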

How the data were processed

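RNA-seq of buffy coats covered 4 red tide manatees and 7 controls, grouped by sample title. The authors cleaned reads with Cutadapt, mapped them to TriManLat1.0 with Bowtie2, removed duplicates, kept unique matches, counted them for each gene sequence and used DESeq for the comparison. The counting program is not given in the sources used here. Their deposited table holds, as signal, the mean of size-factor normalized counts over all libraries and over each group. Its columns of fold change, log2 fold change, p-value and adjusted p-value were not used. Per-sample columns left unused numbered 0.

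Group columns were assigned by their weights of 4 and 7 in the overall mean, and by the table's title, which names red tide first. The assignment is uncertain, since the study's text gives its folds the opposite direction. Single-library reads were searched for 4-library means under 100 and 7-library means under 10, within 6e-10 of the deposited mean (6e-09 from 10 upward). A single combination was found for 10143 of 10159 and 4783 of 5439 records, and 0 records had none. In simulated data 100% of 1453 means of 4 libraries and 90.6% of 1381 means of 7 libraries resolved to 1 combination, which was the true one in 100%. Total counts per library are not known. Replicates are animals.

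Called means a ratio of at least 2. Exact permutation tests were two-sided, with Benjamini-Hochberg adjustment over all records tested. Named genes were the extremes of each class, those outside the range of the 4 libraries, core subunits and tissue isoforms (38 genes). The members, lists and rules were chosen with earlier results of these data known, and the ranking of libraries by size factor was added after their values were seen. Alternatives concerned low means, repeated symbols, centring, the pseudocount of 1, the fold and single libraries. Python 3.11.15, numpy 2.4.6, scipy 1.17.1 and pandas 2.3.3 were used. No sequence or coordinate is given, and 1 named gene is not reported here.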

Additional observations from a re-analysis of the deposited data

Results flagged for a closer look

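Of the 26 groups of 4 or 7 library values tested for an outlying library, 1 was flagged, where chance flags about 1 in 20. For ATP5MC3 (XM_004375486.1), a gene of the rotating ring of complex V, the library of size factor 1.17 in the 7-library group had 7.68 normalized counts. The other 6 libraries of that group had 0 to 1.42, so most of the 10 reads of this record in the 7 libraries came from that library.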

How the results depend on the processing

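No paired analysis was possible because the replicate numbers of the labels are not carried by the columns of the table, which are group means. The number of genes at least 2-fold higher in the 4-library mean was 11, and became 20 at a fold of 1.5 and 6 with ratios centred on all records, and for the 7-library mean it was 4 and became 13 at a fold of 1.5 and 6 with that centring, so 11 against 4 became 6 against 6. Among genes with recovered reads, 6 were at least 2-fold higher in the 4-library mean, and 2 to 6 on leaving out 1 of the 4 libraries at a time, with 2 without the library of size factor 1.03. For the 7-library mean it was 3, and 2 to 8, with 8 without the library of size factor 1.56. The 5 genes with each library above the 7-library mean became 3 after centring. The log2 ratio of ATP5MC3 ranged from -0.28, without the library of size factor 1.03, to 2.02 when 1 library was left out. In these the number of genes falls or rises by the construction of the alternative, except when a library was left out, where the cause was not tested. The remaining comparisons with an alternative moved by less than the spread between libraries or 1.5 times, 75 on whole classes and 171 on single genes. Centring moved the median ratio of all records by 0.14, and with it the medians of the large subunit and of all 110 genes changed sign, to -0.051 and -0.065. Only group means are known for 48 of the 110 genes, and only weakly counted genes could be tested across the 11 libraries. Recovered reads cover counting error of single libraries, not their link to an animal.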
